A study of Homo sapiens with 4 samples.

Results

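The adherens junction genes described here are 10 genes of the 17791 in the expression table: the cadherins CDH1, CDH2 and CDH11, the catenins CTNNB1, JUP and CTNND1, the alpha-catenin family members CTNNA1, CTNNA2 and CTNNAL1, and the actin-binding partner vinculin (VCL). Each was found by its exact gene symbol, and each had 1 row with a value in all 4 libraries. The genes were selected on their levels in these 4 libraries, CTNNA1 above all, so the levels and ratios below are a description and none is tested.

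The study built engineered prostate cancer tissues (EPCaT), in which cells are held in a matrix of polyethylene glycol and fibrinogen, and sequenced bulk RNA at day 15. LNCaP, an androgen-dependent prostate cancer cell line (labelled ADPC), and PC-3, a castration-resistant line (labelled CRPC-ne), were each grown with BJ-5ta normal human fibroblasts, which are an immortalised line, or alone. The 4 groups, with 1 library each and no further treatment, were the LNCaP coculture, with 5 LNCaP cells to 1 BJ-5ta cell, the LNCaP monoculture, the PC-3 coculture, with 5 PC-3 cells to 1 BJ-5ta cell, and the PC-3 monoculture. More than 2 tissues gave the RNA, per the series text, which leaves out how it was combined. The growth protocol is written for PC-3 and names no medium for LNCaP tissues. Each cancer type is represented by 1 cell line and the fibroblasts by 1 line.

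Total counts were 15520243 in LNCaP coculture, 15860981 in LNCaP monoculture, 15687894 in PC-3 coculture and 15865690 in PC-3 monoculture. Levels are counts per 1000000 counts (CPM) after library scaling, or CPM per kilobase of exon where genes are compared with each other. With no replicates, every interval below is a 95% interval for counting error and does not cover the spread between tissues. Intervals are exact, except those of differences between log2 folds, which use a normal approximation. All 8 epithelial markers passed 1 CPM in every library. The 5 LNCaP markers summed to 8844 and 7458 CPM in LNCaP coculture and monoculture, against 411 and 461 CPM in PC-3 coculture and monoculture, where KLK3 and KLK2 were at 0. The 4 PC-3 markers summed to 78.2, 5.95, 2725 and 2197 CPM in the same library order, and the 5 endothelial markers to 37.3, 12.1, 234 and 218 CPM. The endothelial sum mixes opposite directions. In that order KDR had 0, 0, 2562 and 2681 counts and PECAM1 1, 0, 1091 and 806, but VWF 567, 171, 3 and 0. CLDN5 and EMCN stayed under 1 CPM. Among PC-3 markers, CD44 had 776 counts in LNCaP coculture and 1 in LNCaP monoculture. The same libraries had 297 and 0 for CAV1, 65 and 12 for MET, and 75 and 81 for ITGB4. The 11 fibroblast markers summed to 613 CPM in LNCaP coculture and 1.01 CPM in LNCaP monoculture, and to 335 CPM in PC-3 coculture against 13.5 CPM in PC-3 monoculture. All 11 passed 1 CPM in both cocultures, none did in LNCaP monoculture, and 1 (PDGFRA, 186 counts) did in PC-3 monoculture.

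Adherens junctions hold neighbouring epithelial cells together. Classical cadherins bind each other across the gap between cells, and inside the cell they bind beta-catenin (CTNNB1) or plakoglobin (JUP) and, nearer the membrane, p120-catenin (CTNND1). Alpha-E-catenin (CTNNA1) joins this complex to actin filaments and, under tension, recruits vinculin. E-cadherin (CDH1) is the cadherin of prostate epithelium, whereas N-cadherin (CDH2) and cadherin-11 (CDH11) are typical of mesenchymal cells such as fibroblasts. PC-3 cells are known from earlier work to carry a homozygous deletion in CTNNA1.

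The sequences before the transcription starts of CTNNA1, VCL and CDH2 are shown because these genes stand for the patterns over the 4 libraries described below: CTNNA1 was high in LNCaP libraries, VCL was high in PC-3 libraries, and CDH2 was at 0 in 1 library only. Each is the 250 bases before the first listed RefSeq start (GRCh38.p14), read 5′ to 3′ on the gene's strand, with every GC box (GGGCGG or its complement CCGCCC) in capitals. Their positions are chr5:138753175-138753424 on the plus strand for CTNNA1, chr10:73997866-73998115 on the plus strand for VCL and chr18:28177131-28177380 on the minus strand for CDH2.
CTNNA1: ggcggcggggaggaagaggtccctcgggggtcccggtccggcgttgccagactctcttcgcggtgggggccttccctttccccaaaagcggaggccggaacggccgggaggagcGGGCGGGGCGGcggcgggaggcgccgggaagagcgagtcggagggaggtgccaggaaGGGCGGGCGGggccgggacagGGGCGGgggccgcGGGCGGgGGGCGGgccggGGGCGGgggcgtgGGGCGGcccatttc
VCL: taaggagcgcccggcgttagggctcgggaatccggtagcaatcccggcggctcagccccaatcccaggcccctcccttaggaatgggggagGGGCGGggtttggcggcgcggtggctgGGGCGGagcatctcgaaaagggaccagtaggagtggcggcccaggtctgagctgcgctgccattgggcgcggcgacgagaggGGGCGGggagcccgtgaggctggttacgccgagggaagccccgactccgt
CDH2: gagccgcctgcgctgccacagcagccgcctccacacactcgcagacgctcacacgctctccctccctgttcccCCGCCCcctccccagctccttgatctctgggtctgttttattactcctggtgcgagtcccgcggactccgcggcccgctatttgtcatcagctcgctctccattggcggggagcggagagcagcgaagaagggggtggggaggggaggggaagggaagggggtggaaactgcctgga
The CTNNA1 window held 9 GC boxes, counting overlapping matches, the VCL window 3 and the CDH2 window 1. Of all 35116 RefSeq promoter windows of this length, 42.6% held at least 1. An E-box (CAGGTG or its complement CACCTG) was found in none of the 3 windows, and in 17.5% of all windows. By symbol, 7 of the 10 members were matched to a sequence (not CTNND1, CDH1 or CDH11). At the first listed start, 6 of these 7 held a GC box, from 1 in CDH2 to 9 in CTNNA1, with 7 in CTNNAL1, and CTNNA2 held 0. The shares of all windows cover every listed start, so they are not matched to first starts. At later listed starts CTNNA1 held 4, 0 and 0, CTNNA2 held 3, 0 and 0, and JUP and CDH2 held 0. A match says only that these letters are present.

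CTNNA1 (chromosome 5, 138753425 to 138935034, GRCh38.p14) was high in both LNCaP libraries and scarce in both PC-3 libraries. It had 8977 counts in LNCaP coculture, 7288 in LNCaP monoculture, 90 in PC-3 coculture and 1 in PC-3 monoculture. This is 579, 462, 5.74 and 0.0626 CPM, so both LNCaP libraries were high, the PC-3 coculture was low and the PC-3 monoculture was near 0. The single PC-3 monoculture count has an exact Poisson interval of 0.0253 to 5.57 counts, and the 90 counts of the PC-3 coculture one of 72.4 to 111. CTNNA1 was 7367-fold higher in LNCaP monoculture than in PC-3 monoculture (1322 to 291037) and 101-fold higher in LNCaP coculture than in PC-3 coculture (81.9 to 125). With fibroblasts it was 1.25-fold higher in LNCaP tissues (1.22 to 1.29) and 91.7-fold higher in PC-3 tissues (16.04 to 3661). In the PC-3 pair the summed fibroblast markers were also higher in the coculture, at 335 CPM against 13.5 CPM in the monoculture, and their part in the CTNNA1 difference was not tested. In such bulk tissues a change in the number of cells of a type and a change in RNA per cell cannot be told apart.

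The other members of the alpha-catenin family differed less. CTNNAL1 (alpha-catulin, a related protein; chromosome 9, 108942577 to 109013499) had 850 counts in LNCaP coculture, 913 in LNCaP monoculture, 412 in PC-3 coculture and 472 in PC-3 monoculture. It was 1.96-fold higher in LNCaP monoculture than in PC-3 monoculture (1.75 to 2.19) and 2.08-fold higher in LNCaP coculture than in PC-3 coculture (1.85 to 2.35), just outside and just inside the 2-fold threshold. CTNNA2 (alpha-N-catenin, the neuronal form; chromosome 2, 79185377 to 80648780) was near 0 in every library, with 13 and 17 counts in LNCaP coculture and monoculture and 2 and 1 in PC-3 coculture and monoculture. Its ratios, LNCaP over PC-3, were 17.2 between the monocultures (2.69 to 718) and 6.57 between the cocultures (1.49 to 59.9). CTNNA3 (alpha-T-catenin, best known from heart muscle), which is not among the 10 genes, ran the other way, with 0 counts in both LNCaP libraries, 138 in PC-3 coculture and 154 in PC-3 monoculture. CTNNA3 was at least 50.8-fold lower in LNCaP monoculture than in PC-3 monoculture, taken against 3 counts per library. It reached 0.896 CPM per kilobase in PC-3 monoculture, against 118 CPM per kilobase for CTNNA1 in LNCaP monoculture.

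Per kilobase, CTNNA1 made up 88.1% of the summed CTNNA1, CTNNA2 and CTNNAL1 level in LNCaP coculture, 84.8% in LNCaP monoculture, 13.3% in PC-3 coculture and 0.149% in PC-3 monoculture. CTNNAL1 held most of the rest, at 11.8%, 15.1%, 86.5% and 99.7% in the same order. The summed level itself was 168 and 139 CPM per kilobase in LNCaP coculture and monoculture and 11.02 and 10.7 CPM per kilobase in PC-3 coculture and monoculture.

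**Figure D1:**
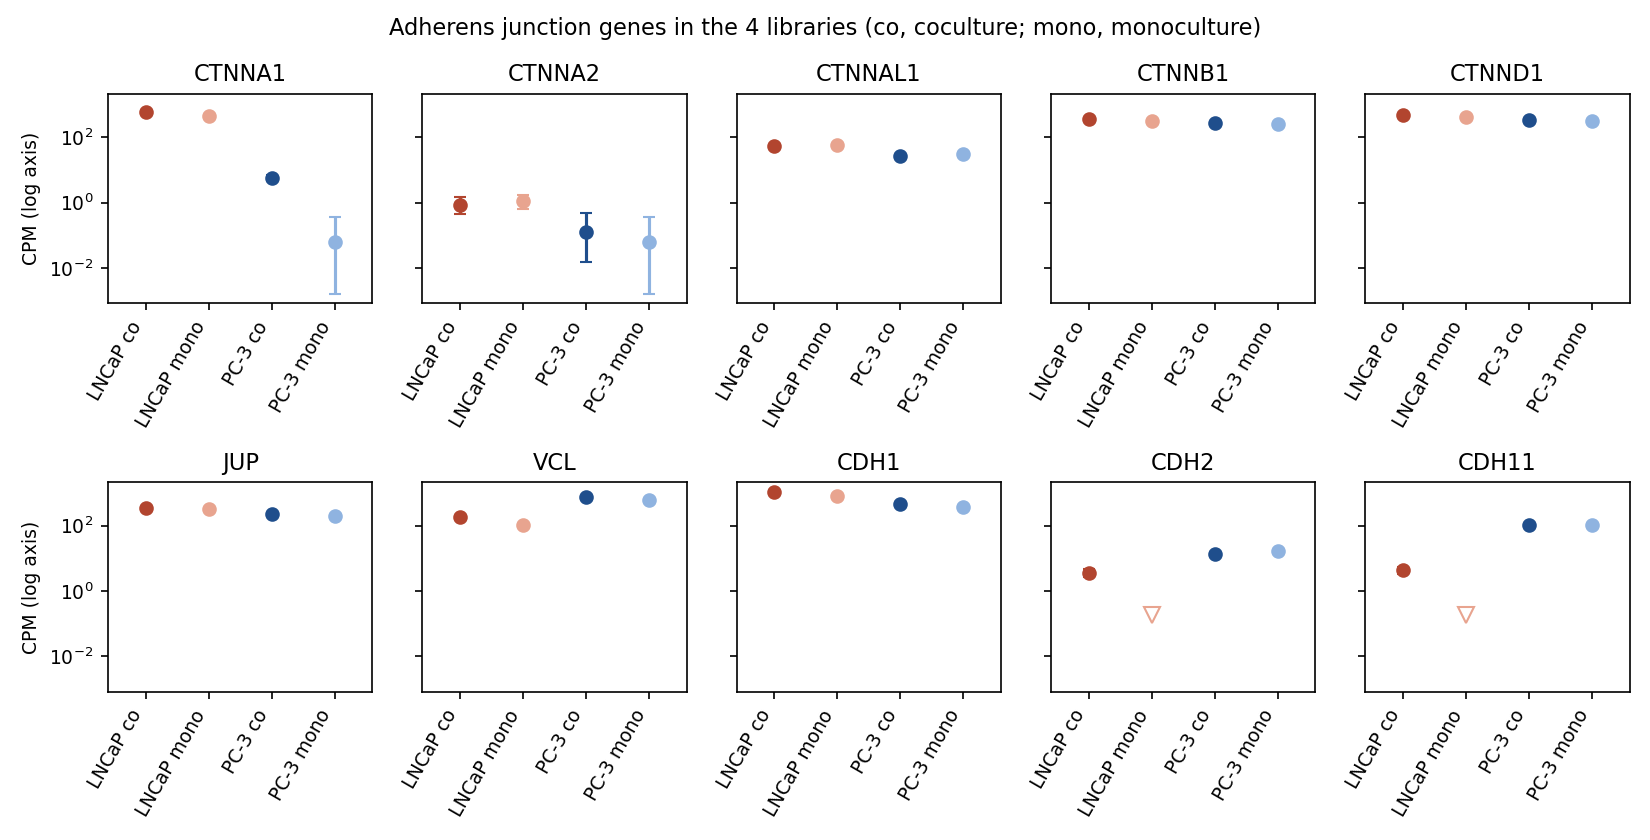
Levels of the 10 adherens junction genes in the 4 libraries, in CPM on a log axis, with bars for the counting interval and open triangles for genes at 0 counts, drawn at 3 counts. CTNNA1 lies at 579 and 462 in LNCaP coculture and monoculture, at 5.74 in PC-3 coculture and at 0.0626 in PC-3 monoculture, whereas CTNNB1, CTNND1 and JUP stay within a narrow band.

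Genes beside CTNNA1 were examined for the same contrast. SIL1, a co-chaperone of the endoplasmic reticulum that lies 11.7 kb past the end of CTNNA1, had 1251 and 994 counts in LNCaP coculture and monoculture and 77 and 57 in PC-3 coculture and monoculture. SIL1 was 17.6-fold higher in LNCaP monoculture than in PC-3 monoculture (13.5 to 23.4) and 16.4-fold higher between the cocultures (13.0 to 20.9). The next genes past SIL1 were MATR3, a nuclear RNA-binding protein gene, at 7819 counts in LNCaP monoculture and 4112 in PC-3 monoculture, and SNHG4, which starts at the same place, at 141 counts in LNCaP monoculture and 32 in PC-3 monoculture. MATR3 was 1.92-fold higher (1.85 to 2.00) and SNHG4 4.45-fold higher (3.02 to 6.76) in LNCaP monoculture, and reads of this overlapping pair may not be told apart. Before CTNNA1, the mitochondrial chaperone gene HSPA9, 178 kb away, was 1.43-fold higher in LNCaP monoculture (1.37 to 1.49). ETF1, the gene of a translation release factor, was 1.34-fold higher there (1.25 to 1.43). EGR1, an immediate-early transcription factor, had 64 counts in LNCaP monoculture and 7 in PC-3 monoculture, a 9.24-fold difference (4.24 to 23.9), and 302 and 84 counts in the LNCaP and PC-3 cocultures. Of the 28 genes in the table that start within 1 Mb of CTNNA1, 24 passed 1 CPM in either monoculture. Of these, 9 were at least 2-fold higher and 3 at least 2-fold lower in LNCaP monoculture, where 22.1% of all genes tested were higher and 23.6% lower. Their median log2 fold was 0.78, against 0.04 over all genes. Of those higher, EGR1, SLC23A1 and SPATA24 reached 1 CPM only in LNCaP monoculture, so they could not have been called lower. Of those lower, STING1 and NRG2 reached it only in PC-3 monoculture, so they could not have been called higher. PROB1 and SPATA24, both among those higher, overlap in position and were counted separately. LRRTM2, which lies within CTNNA1 on the opposite strand and shares no exon bases with it, had 2, 10, 0 and 0 counts in LNCaP coculture, LNCaP monoculture, PC-3 coculture and PC-3 monoculture.

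**Figure D2:**
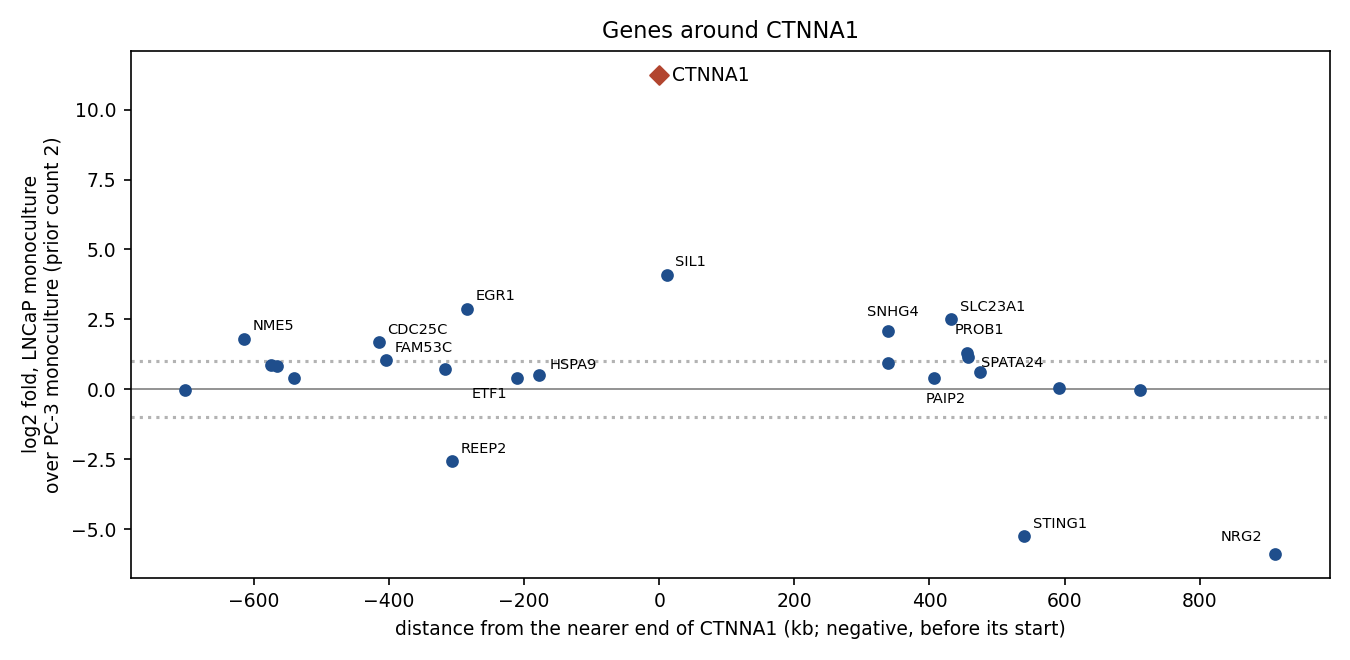
Log2 folds (prior count 2) of CTNNA1 and the genes around it, LNCaP monoculture over PC-3 monoculture, against distance from the nearer end of CTNNA1 in kb, with dotted lines at 2-fold. On this log2 axis CTNNA1 stands at 11.25 and SIL1 next to it at 4.09, with MATR3 past SIL1 within 2-fold. On the other side HSPA9 and ETF1 lie within 2-fold, and EGR1, farther away, stands at 2.89.

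The catenins that bind cadherin tails were the steadiest members. CTNNB1, which binds cadherin tails and also carries Wnt signals (chromosome 3, 41199505 to 41240443), had 353 CPM in LNCaP coculture, 305 CPM in LNCaP monoculture, 268 CPM in PC-3 coculture and 246 CPM in PC-3 monoculture. CTNND1, which slows the removal of cadherins from the membrane (chromosome 11, 57761802 to 57819540), had 493, 417, 348 and 309 CPM in the same order. JUP, shared by adherens junctions and desmosomes (chromosome 17, 41754609 to 41786711), had 354, 331, 226 and 195 CPM. All of these genes followed 1 order, with the LNCaP coculture highest, then the LNCaP monoculture, the PC-3 coculture and the PC-3 monoculture. The highest library exceeded the lowest 1.43-fold for CTNNB1, 1.59-fold for CTNND1 and 1.82-fold for JUP.

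Between the monocultures, LNCaP over PC-3, the ratio was 1.24 for CTNNB1 (1.19 to 1.30), 1.35 for CTNND1 (1.30 to 1.40) and 1.70 for JUP (1.62 to 1.78). Between the cocultures it was 1.31 (1.26 to 1.37), 1.42 (1.37 to 1.47) and 1.57 (1.50 to 1.64) for the same genes. Coculture over monoculture gave 1.16, 1.18 and 1.07 in LNCaP tissues and 1.09, 1.13 and 1.16 in PC-3 tissues. JUP was the most abundant of these catenins per kilobase, with 95.6, 89.2, 61.0 and 52.6 CPM per kilobase, and made up 45.3%, 47.5%, 42.1% and 41.0% of their sum. CTNND1 shares 4.6% of its exon bases with the read-through gene TMX2-CTNND1 on the same strand, whose counts were 284, 115, 172 and 53.

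Set against CTNNB1 in the same library, which does not depend on library scaling, the partners of beta-catenin split by line. Per kilobase there were 3.29 CTNNA1 for each CTNNB1 in LNCaP coculture (3.18 to 3.40), 3.03 in LNCaP monoculture (2.93 to 3.15), 0.0429 in PC-3 coculture (0.0344 to 0.0529) and 0.000511 in PC-3 monoculture (1.29e-05 to 0.00285). For VCL the ratios were 0.598, 0.418, 3.29 and 2.89, so the 2 actin-side genes stood in opposite order in the lines. CDH1 per CTNNB1 was 4.91, 4.13, 2.64 and 2.40. CTNND1 per CTNNB1 varied least of these ratios, at 1.57, 1.54, 1.46 and 1.42.

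VCL, the vinculin gene, whose protein strengthens both adherens junctions and the focal adhesions that hold cells to matrix (chromosome 10, 73998116 to 74121363), had 2785 counts in LNCaP coculture, 1716 in LNCaP monoculture, 11785 in PC-3 coculture and 9643 in PC-3 monoculture. Its levels were 179.5, 109, 752 and 604 CPM, with both PC-3 libraries above both LNCaP libraries. VCL was 5.56-fold lower in LNCaP monoculture than in PC-3 monoculture (5.28 to 5.86) and 4.19-fold lower in LNCaP coculture than in PC-3 coculture (4.02 to 4.37). With fibroblasts it was 1.65-fold higher in LNCaP tissues (1.56 to 1.76) and 1.24-fold higher in PC-3 tissues (1.21 to 1.28). Per kilobase VCL was the most abundant member in both PC-3 libraries, at 112 and 90.3 CPM per kilobase in the coculture and monoculture. In the LNCaP coculture and monoculture it had 26.8 and 16.2 CPM per kilobase. The kit does not mark strand, and VCL shares 16.6% of its exon bases with AP3M1 on the opposite strand. AP3M1, an adaptor complex subunit gene, was itself 3.43-fold lower in LNCaP monoculture than in PC-3 monoculture (3.24 to 3.62), and its part in the VCL difference was not tested.

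CDH1, the E-cadherin gene (chromosome 16, 68737292 to 68835537), had 16989 counts in LNCaP coculture, 12594 in LNCaP monoculture, 7019 in PC-3 coculture and 5959 in PC-3 monoculture. This corresponds to 1095, 798, 448 and 373 CPM, so CDH1 was present in all libraries and higher in LNCaP. It was 2.14-fold higher in LNCaP monoculture than in PC-3 monoculture (2.07 to 2.20) and 2.45-fold higher in LNCaP coculture than in PC-3 coculture (2.38 to 2.51). With fibroblasts it was 1.37-fold higher in LNCaP tissues (1.34 to 1.41) and 1.20-fold higher in PC-3 tissues (1.16 to 1.24). CDH1 was the most abundant member per kilobase in both LNCaP libraries and next to VCL in both PC-3 libraries. Against CTNNA1, CDH1 stood at 1.49 and 1.36 per kilobase in LNCaP coculture and monoculture and at 61.4 in PC-3 coculture (49.9 to 76.5).

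The mesenchymal cadherins were found in PC-3 tissues and in LNCaP coculture. CDH11, the cadherin-11 gene (chromosome 16, 64943753 to 65123744), had 68 counts in LNCaP coculture, 0 in LNCaP monoculture, 1658 in PC-3 coculture and 1729 in PC-3 monoculture. CDH2, the N-cadherin gene (chromosome 18, 27932879 to 28177130), had 55, 0, 210 and 262 counts in these libraries. In the LNCaP monoculture the floor of 3 counts was 0.190 CPM, and a count of 0 has an exact Poisson upper limit of 3.69 counts. CDH11 was at least 570.1-fold lower in LNCaP monoculture than in PC-3 monoculture and 24.1-fold lower in LNCaP coculture than in PC-3 coculture (18.9 to 31.2). CDH2 was at least 86.4-fold lower between the monocultures and 3.78-fold lower between the cocultures (2.80 to 5.18). Both bounds use 3 counts in LNCaP monoculture and leave out the counting error of the PC-3 library.

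With fibroblasts, CDH11 was at least 23.1-fold higher and CDH2 at least 18.7-fold higher in LNCaP tissues, again against 3 counts in the monoculture. In this pair the 11 fibroblast markers summed to 613 CPM in the coculture and 1.01 CPM in the monoculture, where COL1A2, PDGFRA, FAP, LUM, DCN and MMP2 were at 0, and their part in the CDH11 and CDH2 differences was not tested. In PC-3 tissues CDH11 gave a ratio of 0.977 (0.913 to 1.05) and CDH2 one of 0.816 (0.678 to 0.983), coculture over monoculture. Per kilobase, CDH11 was 0.782 of CDH2 in LNCaP coculture (0.540 to 1.14), which counting error does not separate from equal levels. The same ratio was 4.99 in PC-3 coculture (4.32 to 5.79) and 4.17 in PC-3 monoculture (3.66 to 4.77).

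Of the summed CDH1, CDH2 and CDH11 level per kilobase, CDH1 made up 99.4% in LNCaP coculture, 100% in LNCaP monoculture, 83.3% in PC-3 coculture and 79.7% in PC-3 monoculture. CDH11 made up 0.281%, 0%, 13.9% and 16.4% of it and CDH2 0.360%, 0%, 2.79% and 3.92%. The sum was 222, 160.3, 108 and 94.1 CPM per kilobase. E-cadherin transcripts were the largest share of these cadherins in every library, also in PC-3 tissues.

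**Figure D3:**
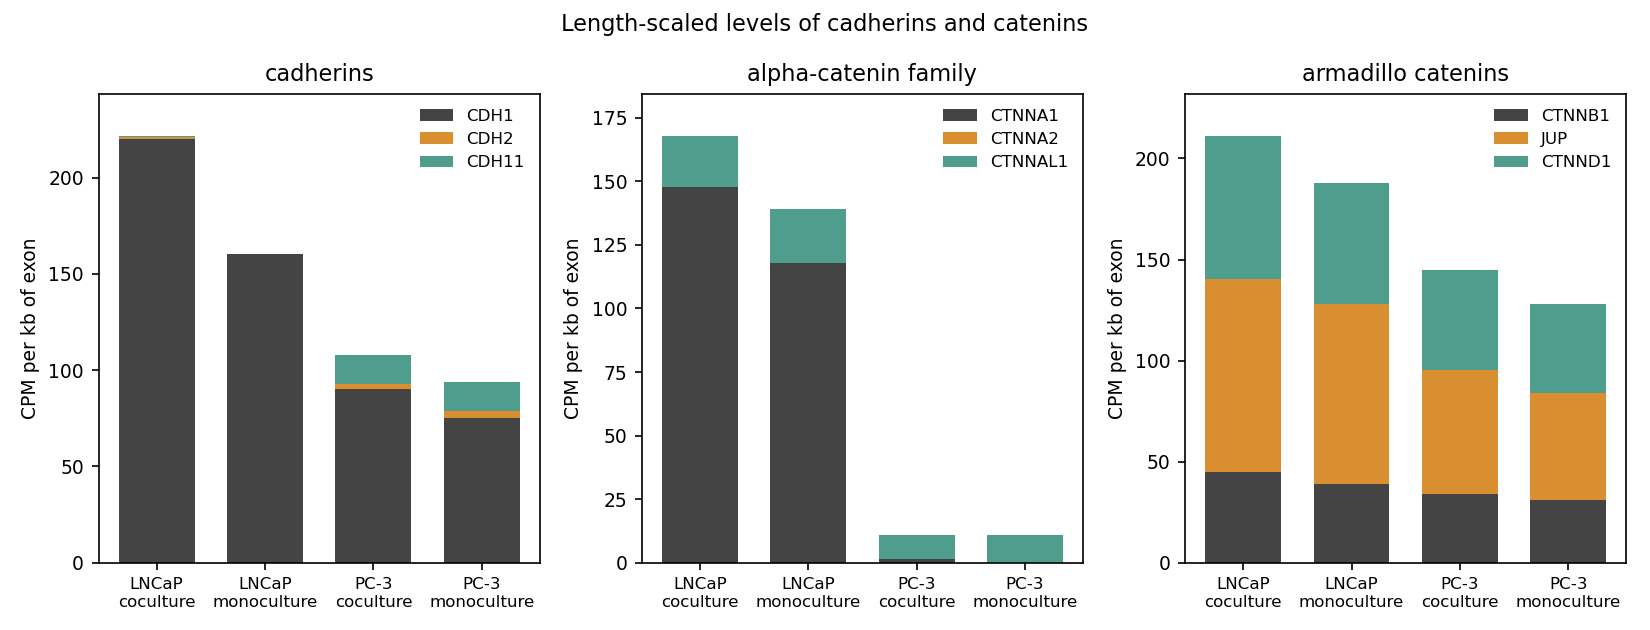
Stacked levels in CPM per kilobase of exon of the members of each set (cadherins, alpha-catenin family and cadherin-tail or armadillo catenins) in each library. CTNNA1 holds 88.1% of its set in LNCaP coculture and 0.149% in PC-3 monoculture, and CDH1 holds between 79.7% and 100% of the cadherin set.

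The order of the members by level per kilobase separated the lines as well. In both LNCaP libraries it ran CDH1, CTNNA1, JUP, CTNND1 and CTNNB1, followed by VCL and CTNNAL1 in the coculture and by CTNNAL1 and VCL in the monoculture. In both PC-3 libraries it ran VCL, CDH1, JUP, CTNND1, CTNNB1, CDH11, CTNNAL1, CDH2, CTNNA1 and CTNNA2. Neighbours in these orders that counting error did not separate were CDH2 and CDH11 in LNCaP coculture and, both at 0 counts, in LNCaP monoculture, and CTNNA1 and CTNNA2 in PC-3 monoculture, with 1 count each.

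Across all genes, a gene was counted as higher or lower when its log2 fold passed 2-fold and it reached 1 CPM in either library compared. For LNCaP coculture against LNCaP monoculture, all 10 members were measured and 2 were higher (CDH2 and CDH11), where 4.56% of all genes were higher. None, 0, were lower, where 3.03% of all genes were lower. CDH2 and CDH11 reached 1 CPM only in the coculture, so they could not have been called lower. The members' median log2 fold was 0.28, against 0.00 over all genes, and 8 of the 10 lay above 0. For PC-3 coculture against PC-3 monoculture, 9 were measured and 1 was higher (CTNNA1), where 2.22% of all genes were higher, and 0 were lower, where 1.01% were lower. The median there was 0.17. CTNNA1 reached 1 CPM only in the PC-3 coculture of this pair, so it could not have been called lower. For LNCaP monoculture against PC-3 monoculture, 3 of 10 were higher (CTNNA1, CTNNA2 and CDH1) and 3 lower (VCL, CDH2 and CDH11), beside the 22.1% and 23.6% of all genes. Between these monocultures CTNNA1 and CTNNA2 reached 1 CPM only in LNCaP, and CDH2 and CDH11 only in PC-3. Each of these genes could be called in 1 direction only. For LNCaP coculture against PC-3 coculture, 3 of 9 were higher (CTNNA1, CTNNAL1 and CDH1), where 20.7% of all genes were higher, and 3 were lower (VCL, CDH2 and CDH11), where 23.6% were lower. The members' median log2 folds were 0.60 between the monocultures and 0.50 between the cocultures, against 0.04 and 0.01 over all genes. In both comparisons between the lines the members' shares were close to those of all genes, and the genes were chosen with them known. The PC-3 libraries enter both a line and a coculture comparison, as do the LNCaP libraries, so these comparisons share samples.

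**Figure D4:**
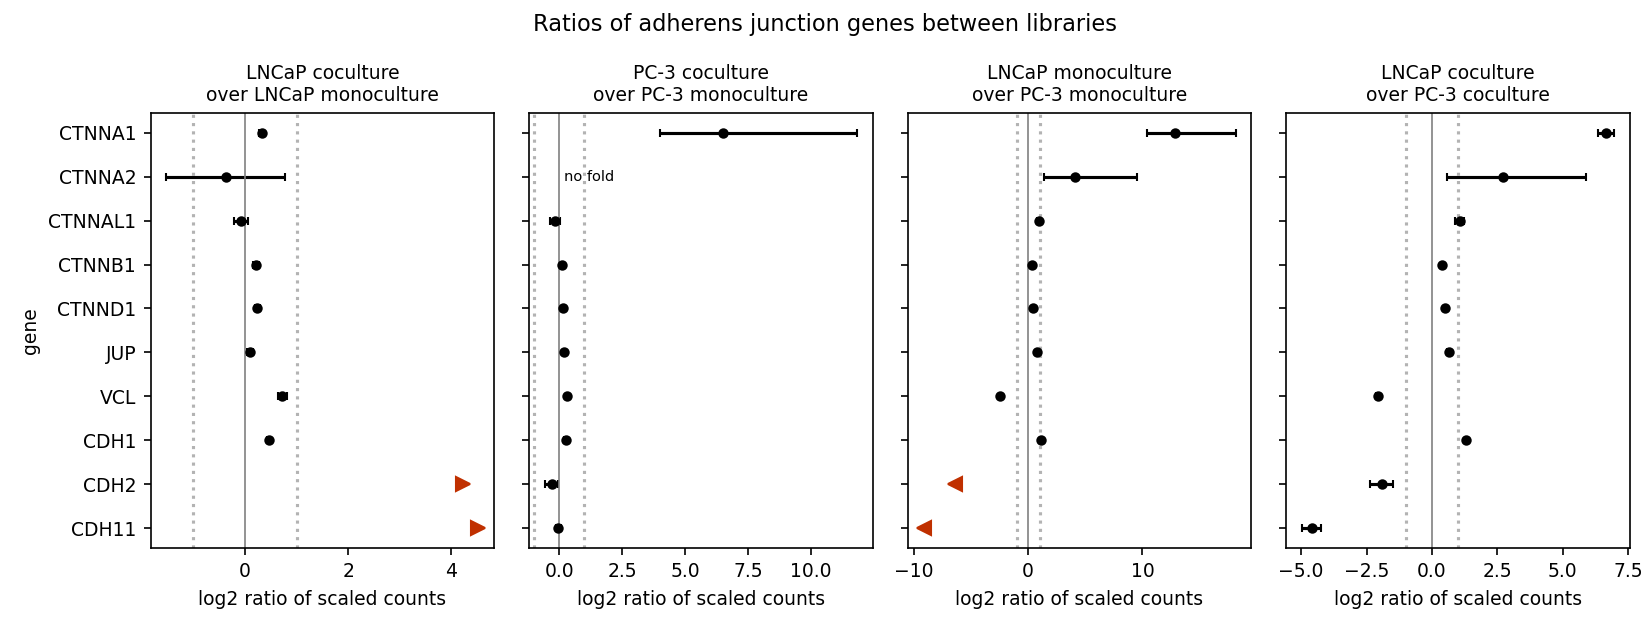
Folds of the 10 members in each of the 4 comparisons on a log2 axis, with dotted lines at 2-fold, counting intervals as bars and arrows for bounds taken against 3 counts, each panel on its own scale. CTNNA1 reaches 7367-fold between the monocultures and 91.7-fold with fibroblasts in PC-3 tissues, against 1.25-fold with fibroblasts in LNCaP tissues.

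The change with fibroblasts was also compared between the lines, as the LNCaP log2 fold minus the PC-3 log2 fold. The difference was -6.19 for CTNNA1 (-9.04 to -3.35), resting on the single PC-3 monoculture count, where the interval's normal approximation is poor. It was 0.41 for VCL (0.31 to 0.50) and 0.19 for CDH1 (0.13 to 0.25), both larger in LNCaP tissues, and -0.12 for JUP (-0.20 to -0.03). For CTNNAL1 it was 0.09 (-0.14 to 0.33), for CTNNB1 0.08 (-0.0014 to 0.17) and for CTNND1 0.07 (-0.0017 to 0.14), intervals that include 0. These intervals are normal approximations and cover counting error only. The exact interval of the CTNNA1 log2 fold in PC-3 tissues alone ran from 4.00 to 11.8. With 1 library in each group the differences were not tested.

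Genes with the pattern most like that of CTNNA1 over the 4 libraries were ranked by Euclidean distance between centred log2 CPM profiles, among genes with at least 100 counts in their highest library. STAT3, a cytokine-activated transcription factor, was nearest at 0.52, with 3689 counts in LNCaP coculture, 3422 in LNCaP monoculture, 42 in PC-3 coculture and 0 in PC-3 monoculture. The membrane peptidase gene MME came next at 0.67, with 13950, 15382, 204 and 7 counts, and the endosomal GTPase gene RAB5C was the fifth at 1.12, with 2229, 2361, 46 and 0 counts. Being picked for this pattern, these genes had a high level in both LNCaP libraries, a low one in PC-3 coculture and almost none in PC-3 monoculture. For CDH11 the nearest were GSTP1, a glutathione transferase gene, at 0.32, with 93, 0, 1959 and 2102 counts, and the lysophosphatidic acid receptor gene LPAR1 at 0.42, with 50, 0, 1743 and 1828 counts. FOXL1, RAB34 and GALNT6 followed at 0.70, 0.71 and 0.82.

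Other junction genes were taken from 6 lists, with 55 of 62 listed genes in the table. For LNCaP coculture against LNCaP monoculture, 3 of the 46 measured were higher and 0 lower, beside 4.56% higher and 3.03% lower over all genes. CDH13, a cadherin anchored to the membrane without a cytoplasmic tail, had 110 counts in the coculture and 18 in the monoculture, a 6.22-fold difference (3.76 to 10.9). The others were CDH3 and NECTIN3. Of these, NECTIN3 reached 1 CPM only in the coculture, so it could not have been called lower. For PC-3 coculture against PC-3 monoculture, 0 of the 51 measured were higher or lower, beside 2.22% higher and 1.01% lower over all genes. The desmosome genes had a median log2 fold of -0.15 in the LNCaP pair, with 7 of 9 below 0, and of 0.09 in the PC-3 pair, with 7 of 8 above 0, all within 2-fold.

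Between the monocultures, LNCaP over PC-3, 11 of the 52 measured other junction genes were higher and 24 lower, beside 22.1% higher and 23.6% lower over all genes. Among the other cadherins 0 of 9 were higher and 8 lower, and CDH6, known from kidney, had 5 counts in LNCaP monoculture and 228 in PC-3 monoculture. Of those lower, CDH6, CDH7, CDH8 and CDH12 reached 1 CPM only in PC-3 monoculture, so they could not have been called higher. CDH4, CDH18 and CDH22 were under 1 CPM in both monocultures and leaned the other way. They had 14, 10 and 6 counts in LNCaP monoculture and 7, 0 and 0 in PC-3 monoculture. Of 12 actin linkers, 3 were higher and 6 lower. ZYX, the zyxin gene of focal adhesions, was the lowest of these, with 794 counts in LNCaP monoculture and 30033 in PC-3 monoculture, 37.4-fold lower (34.9 to 40.2), in the same direction as VCL. TJP1, the tight junction scaffold ZO-1, had 3487 counts in LNCaP monoculture and 1517 in PC-3 monoculture, 2.32-fold higher. Of 7 other catenins and binders, 1 was higher, the p120 relative ARVCF at 847 counts in LNCaP monoculture and 251 in PC-3 monoculture, and 2 were lower. Of 6 nectins and afadin, 0 were higher and 1 lower, NECTIN3 at 3 counts in LNCaP monoculture and 347 in PC-3 monoculture. Of 9 regulators, 2 were higher and 4 lower, with the receptor phosphatase genes PTPRF 2.69-fold higher and PTPRK 15.2-fold lower. Of 9 desmosome genes, 5 were higher and 3 lower. DSC1, among those higher, reached 1 CPM only in LNCaP monoculture, and CTNNA3, CTNND2 and NECTIN3 of the lists above only in PC-3 monoculture. Each of these could be called in 1 direction only. The desmosomal cadherin DSC2 had 3632 counts in LNCaP monoculture and 619 in PC-3 monoculture, 5.93-fold higher (5.45 to 6.47), and the plakophilin PKP1 had 36 counts in LNCaP monoculture and 3068 in PC-3 monoculture, 84.3-fold lower (60.8 to 121).

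Between the cocultures, LNCaP over PC-3, 10 of the 51 measured other junction genes were higher and 22 lower, beside 20.7% higher and 23.6% lower over all genes. Of those lower, CDH6, CDH7, CDH8, CDH12, CTNNA3 and CTNND2 reached 1 CPM only in PC-3 coculture, so they could not have been called higher. The genes at either end of each list were mostly those of the monocultures. DSC2 was 4.01-fold, ARVCF 2.53-fold and TJP1 2.38-fold higher in LNCaP coculture. ADAM10, a protease that sheds cadherins from the cell surface, had 3713 counts in LNCaP coculture and 1605 in PC-3 coculture, 2.34-fold higher (2.20 to 2.48), and took the place of PTPRF. PKP1 was 135-fold, CDH6 44.8-fold, ZYX 24.7-fold, NECTIN3 9.07-fold and PTPRK 8.87-fold lower in LNCaP coculture, and CTNNA3 at least 45.5-fold lower.

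**Figure D5:**
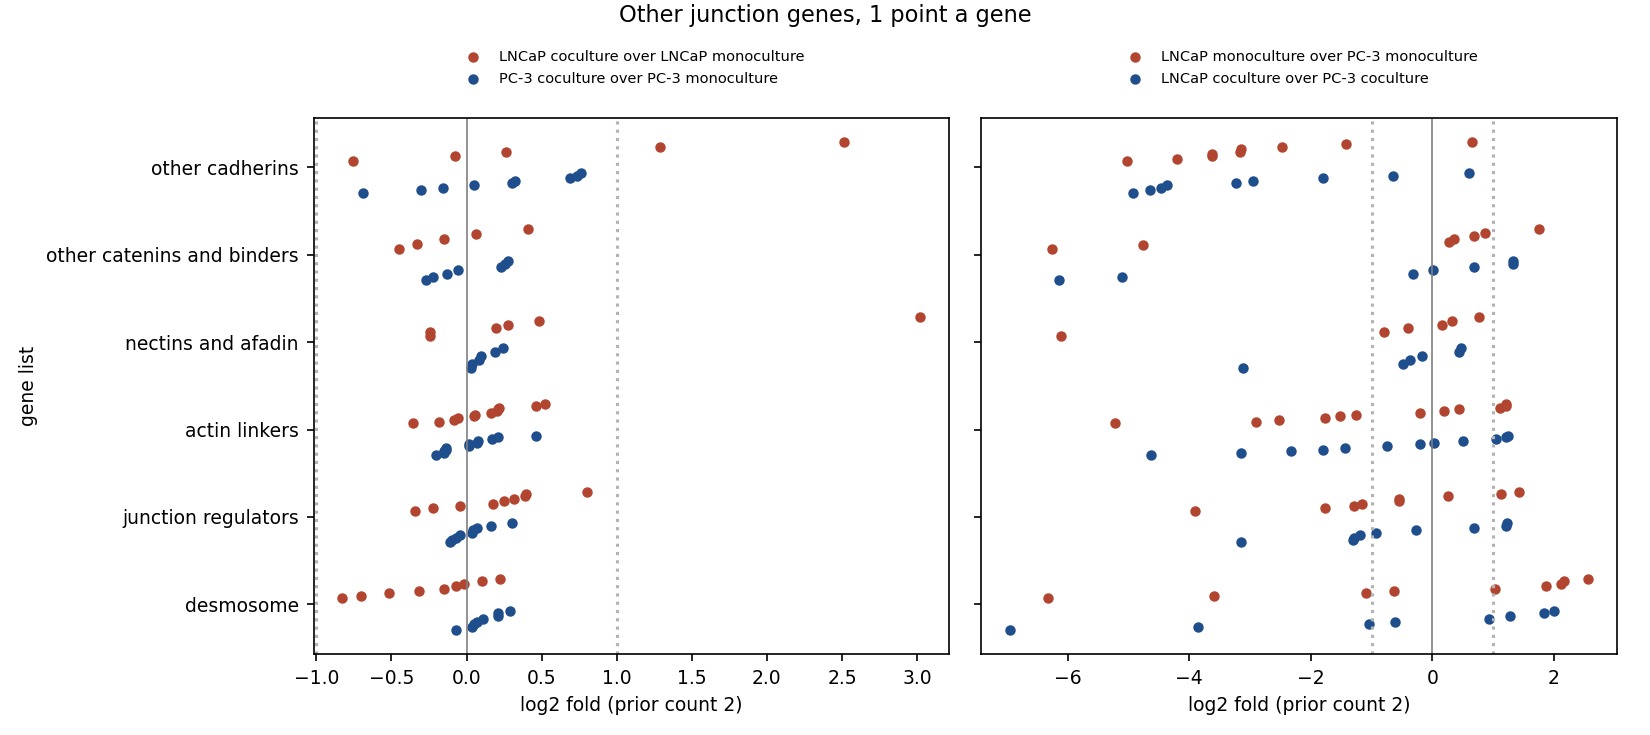
Log2 folds (prior count 2) of the other junction genes by list, 1 point a gene, with the coculture comparisons on the left and the comparisons between the lines on the right, and dotted lines at 2-fold. With fibroblasts nearly all points lie within 2-fold. Between the lines the other cadherins drawn lie mostly on the PC-3 side, with 8 of 9 at least 2-fold lower in LNCaP monoculture. Genes under 1 CPM in both libraries are not drawn, and some cadherins drawn reached 1 CPM only in PC-3 tissues.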

How the data were processed

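Bulk RNA was sequenced from 4 groups of tissues, 1 library each, from TruSeq RNA v2 libraries that do not mark strand, per the labels' protocols. The authors deposited estimated counts per gene symbol for 17791 genes, not scaled to a common total. The submitters' processing notes name FastQC, STAR, Partek and hg38; for roles, versions and annotation the answer is not given in the sources used here. Fractional values, 33.5% to 33.9% of each library, were rounded to whole numbers.

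Counts were scaled by TMM factors from 0.996 to 1.006 (edgeR 4.0.16, R 4.3.3). Log2 folds used a prior count of 2, and a gene was called at 2-fold if it reached 1 CPM in either library compared. Other folds are ratios of scaled counts with exact conditional binomial 95% intervals (scipy 1.17.1), or bounds against 3 counts per library where 1 library was at 0. Differences between log2 folds have 95% intervals from a normal approximation. Such bounds take the count of the other library as exact. Intervals and floors cover counting error only and take reads as independent molecules. Without molecular identifiers reads are not independent molecules, so the intervals may be too narrow even for counting error. Each group had 1 library, and no test was run; a fit over all libraries with line and coculture as additive terms was left out. Exon lengths came from GENCODE 29 and positions from RefSeq (GRCh38.p14, 17147 symbols matched). The calculation was tested on simulated Poisson counts drawn from a shared profile, with a small set of well-counted genes changed in the LNCaP coculture. That check does not cover members at 0 or 1 count, or the wide differences between the lines.

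The members and lists were chosen with earlier results of these data known. Of the other junction lists, the text names per list and comparison the highest and lowest gene past 2-fold with at least 100 counts in the higher library. Chosen after their values were seen, it also names CDH3, NECTIN3 in the LNCaP pair, LRRTM2, AP3M1 and TMX2-CTNND1. Genes of these lists that reached 1 CPM in 1 library of a pair, or in neither, are named for that reason. Around CTNNA1 it names the 3 nearest genes on either side, called genes that reached 1 CPM in 1 monoculture only, and PROB1, which overlaps SPATA24. For CTNNA1 and CDH11 it names genes among the 5 with the most alike profile. Alternatives were total-count scaling, DESeq2 1.42.0 size factors, counts not rounded, a prior count of 0.5, other filters on low counts and a narrower window around CTNNA1.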

Additional observations from a re-analysis of the deposited data

Results flagged for a closer look

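Both mesenchymal cadherins were higher with fibroblasts in LNCaP tissues, whereas their PC-3 ratios, coculture over monoculture, were 0.977 for CDH11 (0.913 to 1.05) and 0.816 for CDH2 (0.678 to 0.983). CDH11 had 68 counts in LNCaP coculture and 0 in LNCaP monoculture, against 1658 in PC-3 coculture and 1729 in PC-3 monoculture. Its LNCaP log2 fold exceeded its PC-3 log2 fold by at least 4.56. CDH2 had 55 counts in LNCaP coculture and 0 in LNCaP monoculture, against 210 in PC-3 coculture and 262 in PC-3 monoculture, a difference of at least 4.51 on the log2 scale. Both differences are bounds taken against 3 counts, and with 1 library in each group they were not tested. A log2 fold also depends on the starting level. In LNCaP coculture CDH11 reached 4.38 CPM and CDH2 3.55 CPM, whereas PC-3 monoculture already had 108 and 16.4 CPM. The fibroblast markers summed to 613 CPM in LNCaP coculture and 335 CPM in PC-3 coculture, and their part in these differences was not tested. The sums hide differences between markers. Of the 11, 4 (LUM, DCN, BGN and MMP2) were at least 2-fold higher in LNCaP coculture than in PC-3 coculture, and 7 lay within 2-fold. The PC-3 ratio of CDH11 did not differ from 1 beyond counting error.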

How the results depend on the processing

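With no filter on low counts, 1286 genes passed 2-fold upward and 753 downward in LNCaP coculture than in LNCaP monoculture, against 644 and 428 with the 1 CPM filter, and 906 were higher and 440 lower in PC-3 coculture than in PC-3 monoculture, against 320 and 146. A 5 CPM filter left 240 higher and 154 lower in the LNCaP pair and 87 higher and 21 lower in the PC-3 pair. It also left 0 members higher in the LNCaP pair, against 2, because CDH2 and CDH11 were below 5 CPM in both libraries, and 2 members higher in LNCaP monoculture than in PC-3 monoculture, against 3, without CTNNA2. With no filter, 4 members were higher in LNCaP coculture than in PC-3 coculture, against 3. Member folds and differences under the alternatives were set against the main values 260 times. Of these, 38 with no filter and 34 with the 5 CPM filter could not move, because a filter does not alter a fold. Of the 260, 11 moved beyond counting error, or by over 0.1 on the log2 scale where a library was at 0. They were 5 with DESeq2 size factors and 6 with a prior count of 0.5, these 6 all of CDH2 or CDH11 with a library at 0. Of the folds and differences that could move, 0 changed direction. Within 0.5 Mb of CTNNA1, 8 of 15 measured genes were higher and 1 lower in LNCaP monoculture than in PC-3 monoculture (median log2 fold 1.04), against 9 of 24 higher and 3 lower within 1 Mb (0.78). In both windows those higher include EGR1, SLC23A1 and SPATA24, which could not have been called lower. No paired analysis was possible because the labels carry no replicate numbers to pair libraries by, and with 1 library a group none was left out. CTNNA1 had 1 count in PC-3 monoculture, so its folds there are known only to the order of size that the intervals give.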

Other observations

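The read-through gene TMX2-CTNND1, named after its values were seen, was higher with fibroblasts in both lines. It had 284 counts in LNCaP coculture and 115 in LNCaP monoculture, 2.51-fold higher (2.02 to 3.15), and 172 counts in PC-3 coculture and 53 in PC-3 monoculture, 3.31-fold higher (2.42 to 4.59). CTNND1 itself was 1.18-fold higher with fibroblasts in LNCaP tissues and 1.13-fold higher in PC-3 tissues. How the counting divided reads between these overlapping genes was not given in the sources used here.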
